A study of Homo sapiens with 9 samples.

Results

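The Wnt genes followed here are 47 genes for ligands, receptors, secreted antagonists and the first intracellular steps of the pathway. They were examined in 3 human breast cancer cell lines, B6TC and both of its parents (MDA-MB-231, ZR-75-1), by the gene symbol of each probe set on the arrays. Of the 47 genes, 43 had a probe set that named no other gene, of 19775 genes named in this way, and they gave 106 probe sets of 54675 in all. Each line had 3 arrays labelled as technical replicates, 9 arrays in all. MDA-MB-231/GFP/Neo is estrogen receptor (ER) negative, carries GFP and G418 resistance, and is a single transfected clone. ZR-75-1/GFP/puro is ER positive, carries GFP and puromycin resistance, and was kept as a pool of resistant cells. B6TC carries GFP, does not need estrogen, was grown out under G418 and is labelled a fusion of both parental lines. It was established from a tumor that B6 cells formed in a nude mouse without added estrogen. The B6 cells had been flushed from the bone marrow of a mouse that bore an MDA-MB-231/GFP/Neo tumor and had received ZR-75-1/GFP/puro cells into the heart. All 3 lines thus carry GFP, and all were cultured in McCoy's medium with fetal bovine serum.

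Wnt proteins are secreted, lipid-modified ligands that bind Frizzled (FZD) receptors on the cell surface. In canonical signaling the coreceptors LRP5 and LRP6 join the complex, the APC and Axin destruction complex is held back, and β-catenin (CTNNB1) accumulates and acts with the TCF/LEF transcription factors. WNT5A and related ligands also signal through ROR1 and ROR2 without β-catenin, DKK1 blocks LRP5 and LRP6, and RNF43 and ZNRF3 remove Frizzled receptors unless R-spondins bind LGR4 or LGR5. In the breast the pathway is known for its part in mammary stem cells.

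The promoter windows of WNT5A, WNT5B, ROR1 and DKK1 are printed. Both B6TC and MDA-MB-231 exceeded ZR-75-1 at least 2-fold at each of these genes. The same held for FZD2 and LRP6, for which no window was found. Each window runs from 250 bases before to 50 bases after a transcription start in RefSeq (GRCh38.p14). Capitals mark the TCF/LEF motif, searched as CTTTGAA or CTTTGAT on both strands. WNT5A and WNT5B have more than 1 window, and the first entry of each is shown. The windows lie at chr3:55487257-55487556, minus strand for WNT5A, at chr12:1616806-1617105, plus strand for WNT5B, at chr1:63773767-63774066, plus strand for ROR1 and at chr10:52314031-52314330, plus strand for DKK1.
WNT5A: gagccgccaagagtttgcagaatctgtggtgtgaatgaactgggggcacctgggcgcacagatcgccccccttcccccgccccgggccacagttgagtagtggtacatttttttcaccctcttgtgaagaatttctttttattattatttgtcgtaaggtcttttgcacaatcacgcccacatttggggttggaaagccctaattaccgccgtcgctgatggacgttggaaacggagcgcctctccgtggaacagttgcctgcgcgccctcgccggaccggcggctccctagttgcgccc
WNT5B: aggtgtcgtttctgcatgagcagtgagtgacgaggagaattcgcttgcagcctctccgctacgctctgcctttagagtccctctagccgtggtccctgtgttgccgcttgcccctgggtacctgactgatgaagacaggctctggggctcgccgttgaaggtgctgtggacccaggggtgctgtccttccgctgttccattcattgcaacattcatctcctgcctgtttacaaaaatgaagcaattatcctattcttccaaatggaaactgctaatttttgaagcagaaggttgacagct
ROR1: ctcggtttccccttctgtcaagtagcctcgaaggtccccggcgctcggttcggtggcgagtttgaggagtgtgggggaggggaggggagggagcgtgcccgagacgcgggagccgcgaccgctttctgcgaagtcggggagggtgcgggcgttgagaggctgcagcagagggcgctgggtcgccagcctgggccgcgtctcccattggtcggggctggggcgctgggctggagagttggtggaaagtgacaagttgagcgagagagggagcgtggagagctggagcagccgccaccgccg
DKK1: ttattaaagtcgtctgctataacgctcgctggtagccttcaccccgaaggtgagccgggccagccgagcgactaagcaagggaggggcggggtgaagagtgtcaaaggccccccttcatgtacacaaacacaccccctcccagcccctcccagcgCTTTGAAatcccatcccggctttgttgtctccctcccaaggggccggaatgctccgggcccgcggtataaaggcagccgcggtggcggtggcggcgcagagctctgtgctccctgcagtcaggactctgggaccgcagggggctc
Among these windows the DKK1 window held the motif, on its plus strand. Windows were found for 32 of the 47 genes, 40 windows in all, and the DKK1 window was the 1 with a match (2.50%), beside 2409 of 35116 windows of all genes (6.86%). The Wnt windows had a median GC content of 66% and a median of 25 CG dinucleotides, and all windows had medians of 58.7% and 14. A match is only a stretch of letters in these 300 bases, and no match says nothing of binding elsewhere.

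The values are log2 expression values, each gene's own scale, so lines were compared within a probe set and never gene against gene. Testing was limited to probe sets that reached a log2 value of 6 on 3 or more arrays, 21095 probe sets for 10751 genes. The probe set of highest mean stood for its gene. A difference was called at a limma adjusted p of 0.05 or less, and because the arrays of a line are technical replicates these p-values measure only technical spread. Between 2 arrays of the same line the median absolute difference was 0.0858 to 0.109 log2 units, and none was a copy of another. B6TC array 3 stood apart at luminal markers. Over 10 such markers the mean log2 value was 5.21, 5.20 and 6.55 on the B6TC arrays, 5.23 to 5.49 on the MDA-MB-231 arrays and 10.8 to 10.9 on the ZR-75-1 arrays. CDH1 (E-cadherin) read 3.38, 3.26 and 6.89 on the B6TC arrays, and ESR1 (ER alpha) read 6.21 to 6.46 there, 6.56 to 6.72 in the ER negative parent and 6.83 to 7.52 in ZR-75-1. The ESR1 difference of -0.33 between B6TC and MDA-MB-231 was not called (limma adjusted p = 0.0686). Each marker was read by its probe set of highest mean, and others were not examined. For ER alpha protein, the study's blots gave a high level in ZR-75-1, a low one in B6TC and none in MDA-MB-231. Over 8 mesenchymal markers B6TC averaged 11.6 to 11.7, MDA-MB-231 11.5 to 11.6 and ZR-75-1 3.77 to 3.88. Markers of leukocytes, endothelium and fibroblasts averaged 4.89 to 5.20 on every array, and 2 to 4 of the 13 had a line mean of at least 6. Within that list COL3A1 had a mean of 5.90 for B6TC against 4.49 (MDA-MB-231) and 4.31 (ZR-75-1), and PECAM1 6.68 for B6TC and 6.69 for MDA-MB-231 against 5.60 for ZR-75-1. The part of array 3 in the results was not tested beyond leaving it out, which kept the counts of called Wnt genes at 14 against MDA-MB-231, 21 against ZR-75-1 and 21 between the parents, beside 65.0%, 84.4% and 84.4% of all tested genes with all arrays. Against MDA-MB-231, FZD5 lost its call and TCF7L1 gained one.

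Of the 47 genes, 23 were tested. By role they were 3 of 14 ligands, 10 of 13 receptors and coreceptors, 1 of 7 antagonists, 3 of 4 receptor turnover genes, 3 of 5 cytoplasmic genes and 3 of 4 transcription factors. Another 20 genes were under the filter, WNT3 and FZD8 had only probe sets that name several genes, and WNT3A and TCF7 were on no probe set named here. A gene high in 1 line alone could pass the filter through that line, so the counts below are of genes that passed and not of the pathway.

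WNT5A, WNT5B and WNT7B were the tested ligands, and both WNT5 genes separated ZR-75-1 from the other lines. WNT5A read 7.45, 7.73 and 7.41 on the B6TC arrays, 8.43, 8.31 and 8.32 on those of MDA-MB-231, and 3.60, 3.60 and 3.97 on those of ZR-75-1. No arrays of different lines overlapped, with MDA-MB-231 highest. B6TC minus MDA-MB-231 was -0.83 ± 0.11 log2 units for WNT5A (SE, n = 3 arrays a line, limma adjusted p = 0.000107), and B6TC minus ZR-75-1 was 3.80 ± 0.11 (limma adjusted p = 2.90e-10). A further WNT5A probe set gave the same order, with a difference of -0.64 between B6TC and MDA-MB-231 (limma adjusted p = 1.34e-05). WNT5B read 8.18, 8.04 and 8.15 on the B6TC arrays, 7.95, 7.95 and 8.03 on those of MDA-MB-231, and 3.92, 3.66 and 4.12 on those of ZR-75-1. The B6TC arrays sat just above the MDA-MB-231 arrays without overlap, and ZR-75-1 was far below. A WNT5B probe set under the filter ran the other way against MDA-MB-231, with 5.44 to 5.53 on the B6TC arrays below 5.66 to 5.83 (-0.27, limma adjusted p without the filter = 0.0222). On the tested probe set the WNT5B difference of 0.15 between B6TC and MDA-MB-231 was not called (95% interval -0.07 to 0.37, limma adjusted p = 0.21), while B6TC exceeded ZR-75-1 by 4.22 ± 0.10 (limma adjusted p = 5.98e-11). The parents differed at WNT5A by 4.63 and at WNT5B by 4.07, MDA-MB-231 being higher.

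WNT7B, a ligand of canonical signaling, moved little. It read 6.55, 6.36 and 6.41 on the B6TC arrays, 6.66, 6.66 and 6.69 on those of MDA-MB-231, and 6.89, 6.85 and 6.68 on those of ZR-75-1. B6TC was lowest, with differences of -0.23 from MDA-MB-231 (limma adjusted p = 0.0127) and -0.37 from ZR-75-1 (limma adjusted p = 0.000498), and the parents overlapped. Its probe set is of the kind that can bind several transcripts. Without B6TC array 2 the difference from MDA-MB-231 was -0.19 and no longer called (limma adjusted p = 0.0515).

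**Figure D1:**
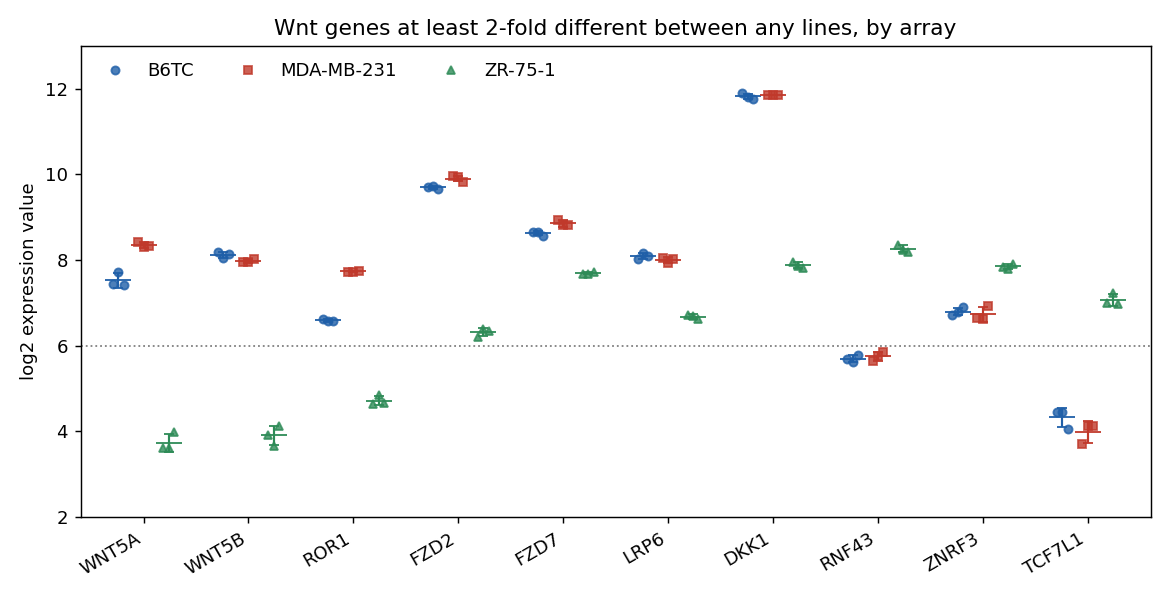
Log2 expression value (vertical axis) of the 10 Wnt genes with a called difference of at least 1 log2 unit between any 2 lines and arrays that did not overlap; points are single arrays, horizontal bars the mean of 3 arrays and error bars the SD, and the dotted line is the filter level of 6. Colors compare lines within a gene: ZR-75-1 is lowest at 7 genes and highest at RNF43, ZNRF3 and TCF7L1, and B6TC lies near MDA-MB-231 at most.

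Among the receptors, ROR1 gave the largest difference between B6TC and MDA-MB-231. ROR1, a receptor tyrosine kinase-like receptor for WNT5A, read 6.63, 6.58 and 6.57 on the B6TC arrays, 7.73, 7.71 and 7.75 on those of MDA-MB-231, and 4.64, 4.84 and 4.65 on those of ZR-75-1. B6TC lay between the parents with no overlap on either side. The difference from MDA-MB-231 was -1.14 ± 0.06 log2 units (SE, n = 3 arrays a line, limma adjusted p = 2.17e-07) and that from ZR-75-1 was 1.88 ± 0.06 (limma adjusted p = 3.80e-10). A second tested ROR1 probe set read 5.60 to 5.79 on the B6TC arrays, 6.63 to 6.65 on those of MDA-MB-231, and 2.59 to 2.71 on those of ZR-75-1, so the order of the lines was the same. Between B6TC and MDA-MB-231, ROR1 was the only tested Wnt gene with a called difference of at least 1 log2 unit, where 3.75% of all tested genes passed this rule and 1.04% passed it as lower. That held for the probe set of highest mean. The second tested probe set of ROR1 gave -0.94 (limma adjusted p = 5.31e-07), and a ROR1 probe set under the filter gave -0.52. Its ligand WNT5A was lower in B6TC too, as given above.

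FZD2 and FZD7 were lowest in ZR-75-1. FZD2 read 9.70, 9.73 and 9.65 on the B6TC arrays, 9.95, 9.93 and 9.83 on those of MDA-MB-231, and 6.21, 6.38 and 6.35 on those of ZR-75-1. FZD7 read 8.66, 8.65 and 8.57 on the B6TC arrays, 8.94, 8.81 and 8.81 on those of MDA-MB-231, and 7.67, 7.68 and 7.73 on those of ZR-75-1. For both receptors the 3 lines did not overlap and B6TC was in the middle, close to MDA-MB-231. B6TC exceeded ZR-75-1 by 3.38 ± 0.06 at FZD2 (limma adjusted p = 6.76e-12) and by 0.93 ± 0.05 at FZD7 (limma adjusted p = 3.50e-08). The other tested FZD2 probe set gave a smaller excess over ZR-75-1, 1.12 (limma adjusted p = 3.41e-06), and that of FZD7 gave 0.90 (limma adjusted p = 7.23e-07). Against MDA-MB-231 the difference was -0.21 at FZD2 (limma adjusted p = 0.00901) and -0.22 at FZD7 (limma adjusted p = 0.00337). Neither of these small differences was called on the gene's other tested probe set, where they were -0.22 (FZD2) and -0.01 (FZD7), and the mean of both FZD7 probe sets gave -0.12 (limma adjusted p = 0.101).

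FZD3, FZD4, FZD5 and FZD6 ran the other way, with ZR-75-1 highest. FZD6 had means of 9.07 for B6TC, 8.81 for its ER negative parent and 9.31 for the ER positive one, with no overlap between lines, so B6TC was between the parents. FZD4 had means of 7.24, 7.17 and 7.66 in the same order, and its difference of 0.07 between B6TC and MDA-MB-231 was not called (95% interval -0.14 to 0.27). FZD5 had means of 7.01, 6.86 and 7.48. The FZD5 difference of 0.14 over MDA-MB-231 was called with all arrays (limma adjusted p = 0.0346), but not without B6TC array 1, 2 or 3 (0.14, 0.14 and 0.15) nor without MDA-MB-231 array 2 or 3 (0.12 and 0.11). FZD3 was read by its probe set of highest mean at 5.98, 5.64 and 6.23, B6TC being 0.35 above MDA-MB-231 (limma adjusted p = 0.00137). The other tested FZD3 probe set gave a difference of -0.24 from MDA-MB-231 (limma adjusted p = 0.025), so the direction for FZD3 depended on the probe set. Both placed ZR-75-1 highest. FZD1 had means of 6.70, 6.66 and 6.63 and no call in any comparison, its widest interval bound being 0.18. A FZD1 probe set under the filter read 6.20, 5.66 and 5.64 in MDA-MB-231 against 4.68 to 4.98 in B6TC and 4.61 to 4.78 in ZR-75-1.

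The coreceptor LRP6 was lowest in ZR-75-1. LRP6 read 8.02, 8.17 and 8.09 on the B6TC arrays, 8.04, 7.92 and 8.03 on those of MDA-MB-231, and 6.71, 6.70 and 6.61 on those of ZR-75-1. Arrays of B6TC and MDA-MB-231 overlapped, and ZR-75-1 was below both. B6TC exceeded ZR-75-1 by 1.42 ± 0.06 (limma adjusted p = 2.75e-09), and its difference of 0.10 from MDA-MB-231 was not called (95% interval -0.03 to 0.22). Across the 3 tested LRP6 probe sets the difference from ZR-75-1 was 0.43 to 1.42, called each time, and the difference from MDA-MB-231 was -0.05, 0.10 and 0.36, with the last called (limma adjusted p = 0.00189). LRP5, the related coreceptor, read 6.44, 6.60 and 6.44 on the B6TC arrays, 6.76, 6.47 and 6.61 on those of MDA-MB-231, and 6.09, 6.03 and 5.97 on those of ZR-75-1. It too was above ZR-75-1 in B6TC, by 0.47 (limma adjusted p = 0.000243), and the arrays of B6TC and MDA-MB-231 overlapped (difference -0.12, 95% interval -0.29 to 0.06).

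DKK1 was the only secreted antagonist that passed the filter. DKK1 read 11.89, 11.80 and 11.77 on the B6TC arrays, 11.86, 11.85 and 11.86 on those of MDA-MB-231, and 7.95, 7.86 and 7.82 on those of ZR-75-1. The B6TC arrays spanned the MDA-MB-231 arrays and stood far above ZR-75-1. B6TC exceeded ZR-75-1 by 3.94 ± 0.05 (limma adjusted p = 1.26e-12) and MDA-MB-231 exceeded it by 3.98 ± 0.05 (limma adjusted p = 1.37e-12). Between B6TC and MDA-MB-231 the difference was -0.03 (95% interval -0.15 to 0.08, limma adjusted p = 0.574).

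RNF43 and ZNRF3, the paired membrane ubiquitin ligases that remove Frizzled receptors, were both highest in ZR-75-1. RNF43 read 5.69, 5.62 and 5.78 on the B6TC arrays, 5.63, 5.75 and 5.85 on those of MDA-MB-231, and 8.34, 8.24 and 8.19 on those of ZR-75-1. ZNRF3 read 6.71, 6.78 and 6.89 on the B6TC arrays, 6.64, 6.61 and 6.93 on those of MDA-MB-231, and 7.83, 7.80 and 7.91 on those of ZR-75-1. At both genes B6TC and MDA-MB-231 overlapped and neither reached ZR-75-1. B6TC minus ZR-75-1 was -2.56 ± 0.07 at RNF43 (limma adjusted p = 1.56e-10) and -1.06 ± 0.09 at ZNRF3 (limma adjusted p = 7.58e-07). Against MDA-MB-231 the differences were -0.05 (95% interval -0.21 to 0.10) and 0.06 (95% interval -0.13 to 0.26), neither called. Of the B6TC arrays, array 3 read highest at both genes (5.78 and 6.89), as it did in the mean of the luminal markers. MDA-MB-231 array 3 was likewise highest of its line at both (5.85 and 6.93). At TCF7L1, also highest in ZR-75-1, array 3 was instead the lowest B6TC array (4.06). The part of that array in these values was not tested.

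LGR4, an R-spondin receptor, was the only tested Wnt gene at which B6TC differed from MDA-MB-231 and was not called against ZR-75-1. LGR4 read 7.86, 7.91 and 7.87 on the B6TC arrays, 7.20, 6.94 and 6.97 on those of MDA-MB-231, and 7.79, 7.76 and 7.97 on those of ZR-75-1. B6TC fell inside the range of ZR-75-1, and MDA-MB-231 was below both. It was 0.84 ± 0.08 above MDA-MB-231 (limma adjusted p = 8.38e-06) and differed from ZR-75-1 by 0.04 (95% interval -0.13 to 0.22, limma adjusted p = 0.623). Of all tested genes, 8.58% had this place.

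In the cytoplasm, CTNNB1 was lowest in B6TC by its probe set of highest mean. CTNNB1, which encodes β-catenin, read 8.78, 8.79 and 8.84 on the B6TC arrays, 9.87, 9.64 and 9.75 on those of MDA-MB-231, and 9.51, 9.45 and 9.59 on those of ZR-75-1. B6TC was clear of both parents, with differences of -0.95 ± 0.06 from MDA-MB-231 (limma adjusted p = 9.77e-07) and -0.71 ± 0.06 from ZR-75-1 (limma adjusted p = 1.48e-06). The second tested CTNNB1 probe set read 6.10, 5.75 and 6.04 on the B6TC arrays, 6.65, 6.53 and 6.49 on those of MDA-MB-231, and 5.73, 5.73 and 5.70 on those of ZR-75-1. It kept B6TC below MDA-MB-231 (-0.59, limma adjusted p = 0.000163) but put it above ZR-75-1 (0.24, limma adjusted p = 0.0213). The lower value against MDA-MB-231 was thus seen on both probe sets and the one against ZR-75-1 was not. Another CTNNB1 probe set, under the filter, had B6TC below both (-0.35 and -0.53).

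AXIN1, the scaffold of the destruction complex, was also lowest in B6TC. AXIN1 read 6.70, 6.79 and 6.71 on the B6TC arrays, 6.91, 7.06 and 6.95 on those of MDA-MB-231, and 7.22, 7.12 and 7.05 on those of ZR-75-1. B6TC overlapped neither parent and differed by -0.24 from MDA-MB-231 (limma adjusted p = 0.0056) and by -0.39 from ZR-75-1 (limma adjusted p = 0.000121). The parents overlapped, and their difference of -0.15 (limma adjusted p = 0.034) was lost without MDA-MB-231 array 1 (-0.12) or 3 (-0.14), or ZR-75-1 array 1 (-0.11) or 2 (-0.16). APC, which holds the complex together with Axin, was highest in B6TC by its probe set of highest mean. APC read 8.15, 8.0 and 8.04 on the B6TC arrays, 7.57, 7.59 and 7.55 on those of MDA-MB-231, and 7.05, 7.11 and 7.29 on those of ZR-75-1, so no lines overlapped. B6TC exceeded MDA-MB-231 by 0.50 ± 0.07 (limma adjusted p = 0.000104) and ZR-75-1 by 0.91 ± 0.07 (limma adjusted p = 3.32e-07). The second APC probe set reversed the first of these, with 6.29 to 6.51 in B6TC below 6.55 to 6.81 in MDA-MB-231 (-0.25, limma adjusted p = 0.0233), and kept the second (0.71). The mean of both gave 0.12 against MDA-MB-231, not called (limma adjusted p = 0.0589).

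**Figure D2:**
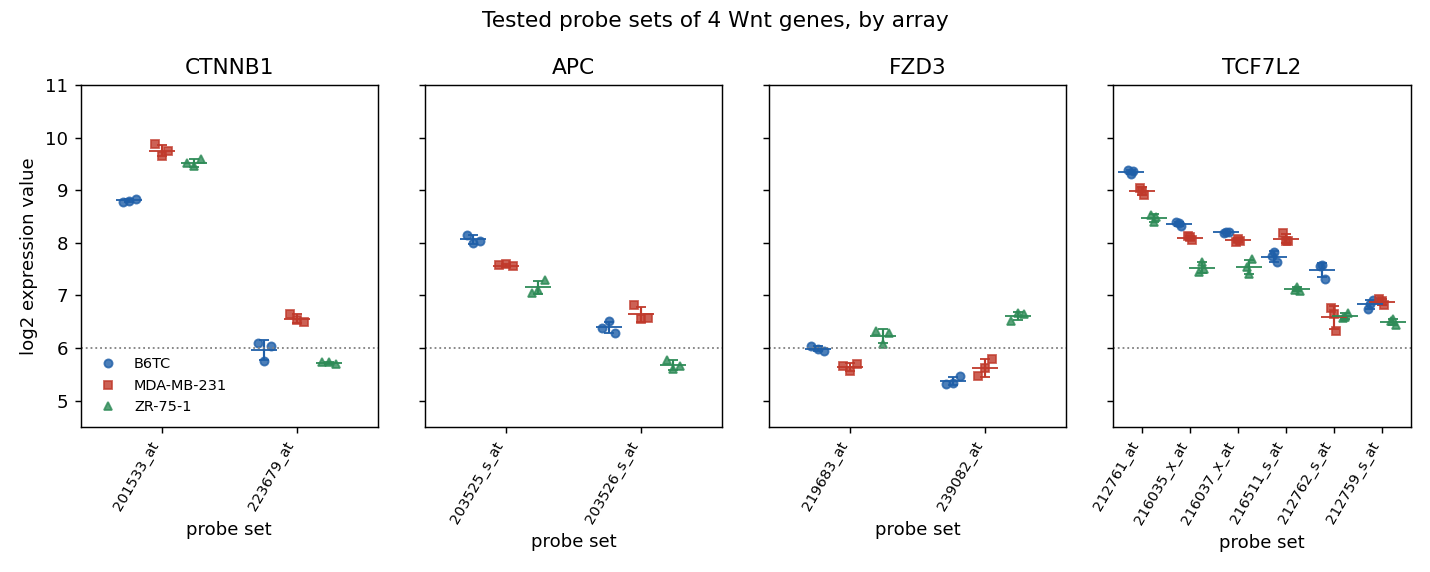
Log2 expression value (vertical axis) on every tested probe set (horizontal axis) of CTNNB1, APC, FZD3 and TCF7L2; points are arrays, horizontal bars means of 3 arrays and error bars SD, and the dotted line is the filter level of 6. Within a gene the order of B6TC and 1 of its parents turns between probe sets, as for CTNNB1 against ZR-75-1 and for APC, FZD3 and TCF7L2 against MDA-MB-231.

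The TCF/LEF factors, which carry β-catenin to DNA, did not move together. TCF7L1, often a repressor of Wnt targets, read 4.44, 4.45 and 4.06 on the B6TC arrays, 3.69, 4.11 and 4.13 on those of MDA-MB-231, and 7.0, 7.23 and 6.98 on those of ZR-75-1. ZR-75-1 stood far above the other lines, which overlapped through B6TC array 3. B6TC minus ZR-75-1 was -2.75 ± 0.14 (limma adjusted p = 1.89e-08). Its 0.34 over MDA-MB-231 was not called (95% interval 0.03 to 0.66, limma adjusted p = 0.0539), although without B6TC array 3 it was 0.47 and called (limma adjusted p = 0.0134), as it was without MDA-MB-231 array 3 (0.42, limma adjusted p = 0.0424). With the replicate number as a block TCF7L1 was also called (limma adjusted p = 0.0476). LEF1 read 7.22, 7.22 and 7.15 on the B6TC arrays, 7.89, 7.88 and 7.71 on those of MDA-MB-231, and 6.94, 6.96 and 7.01 on those of ZR-75-1. LEF1 was between the parents in B6TC with no overlap, at -0.63 ± 0.06 from MDA-MB-231 (limma adjusted p = 5.94e-06) and 0.22 ± 0.06 from ZR-75-1 (limma adjusted p = 0.00368).

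TCF7L2, the main TCF of many epithelial cells, had 6 tested probe sets. On the one of highest mean it read 9.38, 9.31 and 9.37 on the B6TC arrays, 9.05, 8.99 and 8.90 on those of MDA-MB-231, and 8.53, 8.39 and 8.49 on those of ZR-75-1. The lines did not overlap, and B6TC was above MDA-MB-231 by 0.37 ± 0.06 (limma adjusted p = 0.000206) and above ZR-75-1 by 0.88 ± 0.06 (limma adjusted p = 9.81e-08). All 6 probe sets had B6TC above ZR-75-1, by 0.33 to 0.88. Against MDA-MB-231 they ran from -0.35 (limma adjusted p = 0.000888) to 0.90 (limma adjusted p = 4.10e-05), so no single direction described TCF7L2 in that comparison.

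Counted over the 23 tested Wnt genes, B6TC differed from MDA-MB-231 at 14 (6 higher, 8 lower) at a limma adjusted p of 0.05 or less, beside 65.0% of all tested genes (36.5% higher, 28.5% lower). From ZR-75-1 it differed at 21 (11 higher, 10 lower), beside 84.4% of all (42.8% and 41.6%). The parents differed at 21 (12 higher in MDA-MB-231, 9 lower), beside 84.4% (42.5% and 41.9%). The Wnt shares of 60.9%, 91.3% and 91.3% were thus near those of all genes. The arrays of the lines did not overlap at 15, 21 and 20 of the 23 genes, beside 71.0%, 87.5% and 85.6% of all. With at least 1 log2 unit the counts were 1, 9 and 10, beside 3.75%, 31.6% and 31.9% of all genes. These comparisons share arrays and are not independent. The median absolute log2 difference of the Wnt genes was 0.23 for B6TC against MDA-MB-231 (0.25 over all genes). Against ZR-75-1 it was 0.88 (0.61 over all), and between the parental lines it was 0.80 (0.61).

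**Figure D3:**
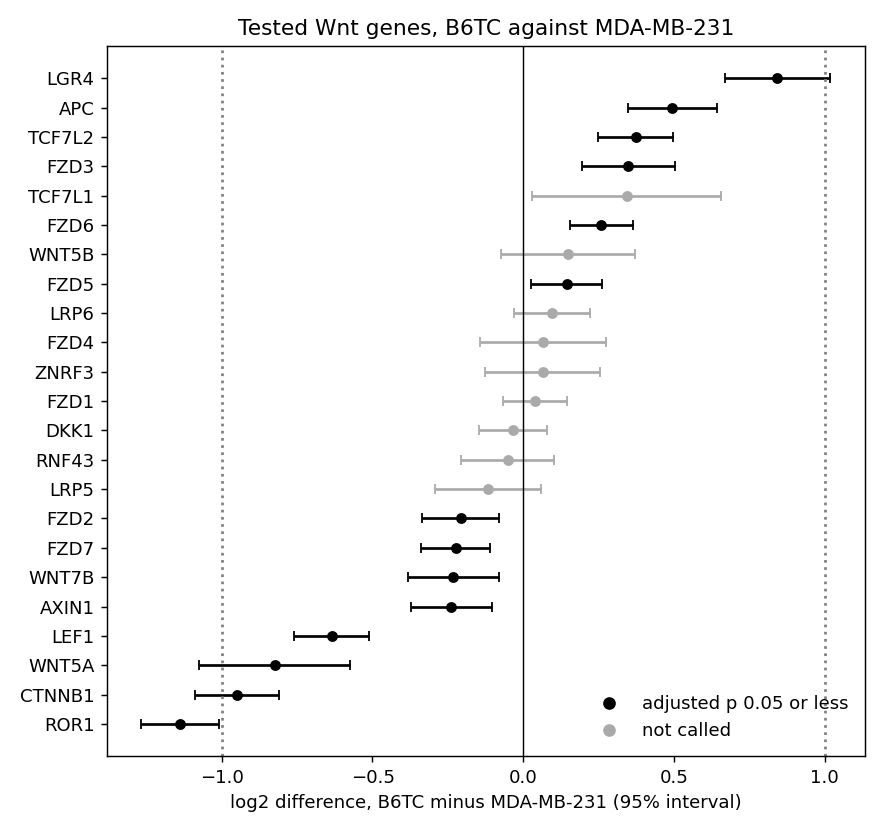
Log2 difference of B6TC minus MDA-MB-231 (horizontal axis) for the 23 tested Wnt genes, with the 95% interval of the limma fit; black marks an adjusted p of 0.05 or less, grey the rest, and dotted lines a difference of 1 log2 unit. ROR1 at -1.14, CTNNB1 at -0.95 and WNT5A at -0.83 are at the low end and LGR4 at 0.84 at the high end.

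Taking both comparisons of B6TC together, it lay between the parents at 8 Wnt genes, differed from ZR-75-1 alone at 8, was above both parents at 2 (TCF7L2 and APC) and below both at 3 (WNT7B, AXIN1 and CTNNB1), and the last places held LGR4 and FZD1. Over all tested genes these places held 21.8%, 28.0%, 20.1%, 14.6%, 8.58% and 7.01%. Each gene was placed by its probe set of highest mean. Another tested probe set gave an opposite call at APC, FZD3 and TCF7L2 against MDA-MB-231 and at CTNNB1 against ZR-75-1. The places of these genes thus depended on the probe set. At the 10 genes whose parents differed by at least 1 log2 unit, the position of B6TC was put on a scale from 0, the MDA-MB-231 mean, to 1, the ZR-75-1 mean. The median position was 0.0578, beside 0.0351 over the 3429 such genes of the whole table, of which 77.4% were at 0.25 or less. By single B6TC arrays the Wnt median was 0.0235, 0.0475 and 0.0487 (SD 0.0142). With array means it was 0.0337 without B6TC array 3, 0.0359 and 0.0319 without MDA-MB-231 array 1 and 2, and 0.0998 without MDA-MB-231 array 3. The Wnt median thus moved with single arrays. The value of all genes was computed only with all 9 arrays, so which of these medians is higher was not settled. By the probe set of highest mean, ROR1 lay highest at 0.377, then FZD7 at 0.194 and WNT5A at 0.178, and LRP6 lowest at -0.0725. On the other tested FZD7 probe set B6TC differed from MDA-MB-231 by -0.01 and the parents differed by 0.90. The positions of single genes were not computed on other probe sets. No Wnt gene of the 10 lay nearer to ZR-75-1 than to MDA-MB-231.

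**Figure D4:**
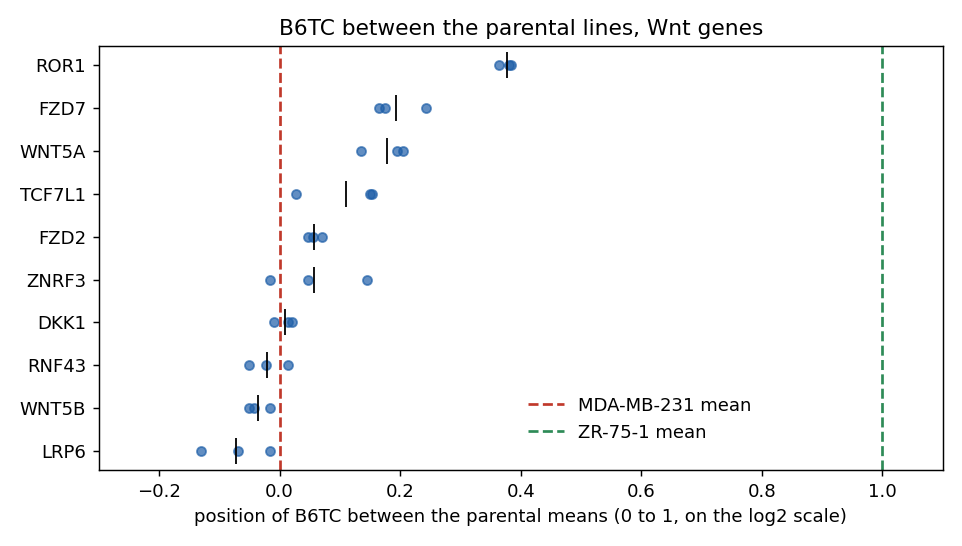
Place of B6TC on the log2 scale that joins both parental means (horizontal axis, from 0 at MDA-MB-231 to 1 at ZR-75-1) at the 10 Wnt genes that differed at least 2-fold between the parents; points are the B6TC arrays and the vertical tick their mean. All points lie at the MDA-MB-231 side, with ROR1 farthest from it.

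The 20 genes under the filter included most secreted antagonists and most ligands. At 16 of them every value was below 6, and at WNT6, WNT16, ROR2 and AXIN2 1 or 2 arrays reached 6 on a probe set. No detection calls were used here, so these values are called low and not absent. SFRP1, SFRP2, SFRP4, FRZB and WIF1, which bind Wnt ligands outside the cell, had highest values of 4.78, 3.94, 4.44, 3.61 and 2.78 on any array. WNT2, WNT4, WNT7A, WNT10A, WNT10B and WNT11 peaked between 4.35 and 5.92, and FZD10 at 2.70.

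Some low genes still differed between lines when every probe set was tested. LGR5, an R-spondin receptor and stem cell marker, read 5.72, 5.79 and 5.82 on the B6TC arrays, 4.87, 4.80 and 4.81 on those of MDA-MB-231, and 2.58, 2.76 and 2.38 on those of ZR-75-1. The lines were in 3 separate bands with B6TC on top, 0.95 above MDA-MB-231 (limma adjusted p without the filter = 2.00e-05) and 3.20 above ZR-75-1 (limma adjusted p = 2.13e-10). The other LGR5 probe set did not place B6TC above MDA-MB-231 (5.07 to 5.21 against 5.06 to 5.37, difference -0.13, 95% interval -0.34 to 0.09) and did place ZR-75-1 lowest. ROR2, the sister receptor of ROR1, ran opposite to it, with 2.96, 2.74 and 2.99 on the B6TC arrays, 3.00, 3.09 and 2.64 on those of MDA-MB-231, and 5.88, 6.12 and 5.61 on those of ZR-75-1. Its B6TC and MDA-MB-231 arrays overlapped, and B6TC minus ZR-75-1 was -2.97 ± 0.14 (limma adjusted p without the filter = 1.69e-08). WNT2B was highest in ZR-75-1 on all 4 of its probe sets, where B6TC minus ZR-75-1 ran from -2.19 to -0.63 log2 units, called each time (limma without the filter). On the probe set with the highest WNT2B values it read 3.50, 3.53 and 3.83 on the B6TC arrays, 3.16, 3.64 and 3.69 on those of MDA-MB-231, and 5.72, 5.40 and 5.26 on those of ZR-75-1.

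DKK3, a Dickkopf relative, read 5.27, 5.51 and 5.38 on the B6TC arrays, 5.18, 4.81 and 4.79 on those of MDA-MB-231, and 3.94, 4.15 and 4.09 on those of ZR-75-1 on its brightest probe set. B6TC was highest there, by 0.46 over MDA-MB-231 (limma adjusted p without the filter = 0.00933), while its other 5 probe sets stayed at or below 3.36 on every array. AXIN2 and NKD1, feedback inhibitors that canonical signaling induces, gave no call between B6TC and MDA-MB-231. On its brightest probe set AXIN2 read 5.76, 5.74 and 5.70 on the B6TC arrays, 5.30, 5.75 and 5.63 on those of MDA-MB-231, and 6.22, 5.79 and 6.0 on those of ZR-75-1 (B6TC against MDA-MB-231 0.17, 95% interval -0.11 to 0.45, limma adjusted p without the filter = 0.345). The other 3 AXIN2 probe sets ran the other way, at -0.22, -0.09 and -0.18, none called, and at -0.22 the arrays of both lines did not overlap. NKD1 read 5.37, 5.23 and 5.23 on the B6TC arrays, 5.88, 5.48 and 5.42 on those of MDA-MB-231, and 5.49, 5.44 and 5.68 on those of ZR-75-1 (difference from MDA-MB-231 -0.32, 95% interval -0.57 to -0.06, limma adjusted p without the filter = 0.0662). The B6TC arrays of NKD1 were all below those of MDA-MB-231, but the difference missed the adjusted threshold. Its other probe sets gave -0.28 and -0.11, not called. On the AXIN2 and NKD1 probe sets given by array, every B6TC array was below every ZR-75-1 array.

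**Figure D5:**
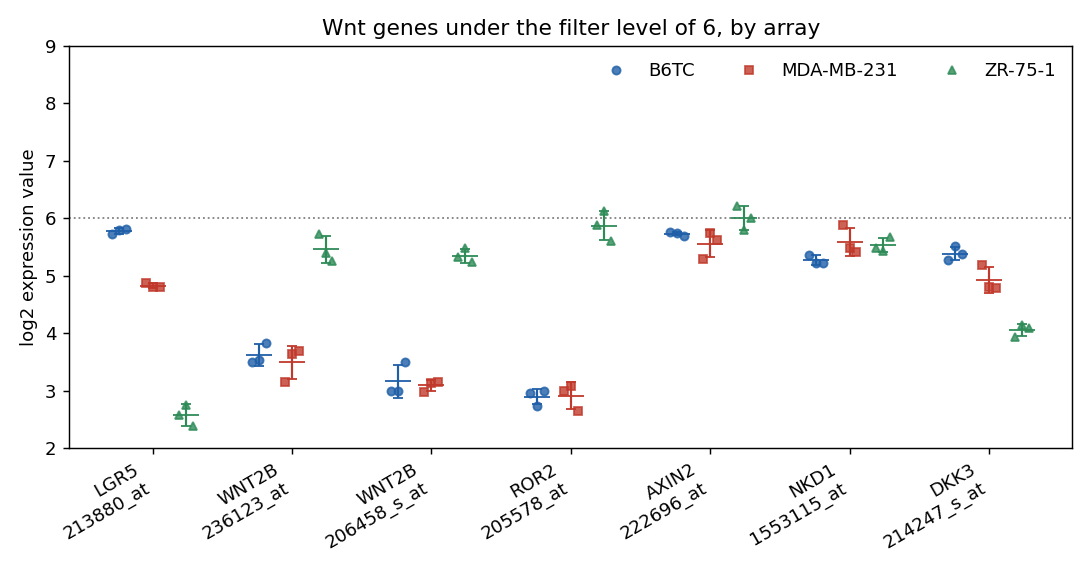
Log2 expression value (vertical axis) of 7 probe sets of 6 Wnt genes under the filter, by array (points) with means of 3 arrays (horizontal bars) and SD (error bars); the dotted line is the filter level of 6. On the probe sets shown, LGR5 and DKK3 are highest in B6TC, which the other LGR5 probe set did not show, and WNT2B and ROR2 are highest in ZR-75-1. AXIN2 and NKD1 lie closer together in the 3 lines, with every B6TC array below every ZR-75-1 array.

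Other genes of the pathway were read from a list of 82, of which 50 were tested. B6TC was higher than MDA-MB-231 at 11 and lower at 18 of them, beside 36.5% and 28.5% of all tested genes, and the median log2 difference was -0.07 (0.04 over all genes). Against ZR-75-1 it was higher at 17 and lower at 26, beside 42.8% and 41.6% of all. MDA-MB-231 against ZR-75-1 was higher at 19 and lower at 24, beside 42.5% and 41.9%. As shares of the 50, these were 22.0% and 36.0%, then 34.0% and 52.0%, then 38.0% and 48.0%. Each gene of this list was read by its probe set of highest mean, and others were not examined. WLS, the carrier that Wnt proteins need for secretion, read 9.22, 9.20 and 9.16 on the B6TC arrays, 9.22, 9.20 and 9.14 on those of MDA-MB-231, and 3.46, 3.66 and 3.45 on those of ZR-75-1. Here B6TC and MDA-MB-231 overlapped and both were above ZR-75-1, B6TC by 5.67 (limma adjusted p = 4.64e-13). PRKCA, a kinase of non-canonical signaling, differed by -0.72 between B6TC and MDA-MB-231 (limma adjusted p = 0.00015) and by 5.21 between B6TC and ZR-75-1. NDP (Norrin), a non-Wnt ligand of FZD4, read 6.06, 6.05 and 6.20 on the B6TC arrays, 4.67, 4.54 and 4.51 on those of MDA-MB-231, and 2.37, 2.30 and 2.43 on those of ZR-75-1. It was the only gene of this list at least 1 log2 unit apart between B6TC and MDA-MB-231 (1.53, limma adjusted p = 6.60e-08). That was 1 of 50 genes (2%), beside 3.75% of all tested genes. NDP passed the filter through its B6TC arrays alone, since every parental array was below 6. After NDP, the largest called differences between B6TC and MDA-MB-231 were at TLE3 (-0.90), a corepressor of TCF factors, PRICKLE2 (-0.81), of planar cell polarity, and PRKCA. Against ZR-75-1, PRKCA and WLS were followed by NDP (3.73) and PRICKLE1 (3.36). Between the parents PRKCA differed by 5.94, WLS by 5.66, PRICKLE1 by 3.68 and CELSR2, another polarity gene, by -3.36.

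Canonical target genes, taken from a list of 28 of which 17 were tested, went both ways. B6TC was higher than MDA-MB-231 at 6 (35.3%) and lower at 7 (41.2%), beside 36.5% and 28.5% of all tested genes. It was higher than ZR-75-1 at 10 (58.8%) and lower at 5 (29.4%), beside 42.8% and 41.6%. MDA-MB-231 was higher than ZR-75-1 at 9 (52.9%) and lower at 5 (29.4%), beside 42.5% and 41.9%. The median log2 difference between B6TC and MDA-MB-231 was -0.18, beside 0.04 over all genes. Here too each gene was read by its probe set of highest mean, and others were not examined. PPARD, a nuclear receptor, was 1.01 above MDA-MB-231 (limma adjusted p = 5.66e-07), TCF4 0.93, MYC 0.80 and BAMBI, a TGF-β pseudoreceptor, 0.75. MYC read 10.70, 10.73 and 10.76 on the B6TC arrays, 9.90, 9.91 and 9.98 on those of MDA-MB-231, and 9.45, 9.46 and 9.43 on those of ZR-75-1, so B6TC was above both parents. CCND1 (cyclin D1) went the other way, with 10.01, 10.03 and 9.93 in B6TC against 10.46 and above on every parental array. Against ZR-75-1 the largest differences of B6TC were at FOSL1 (5.41), an AP-1 factor, ASCL2 (-3.66), NRCAM (-3.62) and MET (2.75). The same FOSL1, ASCL2 and NRCAM differed most between the parents (5.59, -3.34 and -3.32), with CD44 (2.90) next.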

How the data were processed

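Total RNA of each cell line was hybridized to Affymetrix whole-genome arrays, 3 technical replicates a line. Per the labels, the authors made the deposited log2 values with RMA in Affymetrix Expression Console, while the study's methods name GC-RMA, so which background model was used is not settled. No version is given in the sources used here. Probe sets were named from the platform annotation, with symbols updated by gene identifier to GRCh38.p14: 41091 had 1 symbol, 1801 several and 11721 none, beside 62 controls, which were left out. Names were taken only from probe sets with 1 symbol.

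All 9 arrays were fitted with limma 3.58.1 in R 4.3.3 (6 residual degrees of freedom), with Benjamini-Hochberg adjustment over all 21095 tested probe sets. Genes given in full had a called difference of at least 1 log2 unit in any comparison and no overlap of arrays; 15 core genes were described whatever they did, and 4 genes per comparison from each further list. Genes singled out beyond these were chosen after their values were seen. The Wnt genes and lists were chosen with earlier results of these data known. The fit was tested on simulated data. The number of arrays limits the precision. Replicate numbers were not used to pair arrays in the main fit, and alternatives are in the closing section.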

Additional observations from a re-analysis of the deposited data

How the results depend on the processing

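The number of Wnt genes called changed with the rule for size, the filter and the probe sets used. Without a filter 18, 28 and 27 of 43 genes were called, and with a filter on level and variation 10, 16 and 17 of 17, in the order of comparisons given next. With at least 1 log2 unit required, 1, 9 and 10 genes were called for B6TC against MDA-MB-231, B6TC against ZR-75-1 and MDA-MB-231 against ZR-75-1. Of all tested genes, 3.75%, 31.6% and 31.9% passed this rule. For the other settings in this section the share of all genes was not computed. The filter on variation kept probe sets that varied over the 9 arrays, so it favored genes that differ between lines. Without probe sets whose identifier marks binding to several transcripts, 8 of the 15 genes left were called for B6TC against MDA-MB-231. The median position of B6TC was 0.0862 when the probe sets of each gene were averaged. Leaving out 1 array at a time gave 12 to 14, 21 to 21 and 20 to 22 genes, and a position of 0.0319 to 0.0998. That position was 0.0319 without MDA-MB-231 array 2, 0.0359 without its array 1 and 0.0998 without its array 3, and 0.0337 without B6TC array 3. FZD3 reversed to -0.24 (B6TC against MDA-MB-231) under the filter on level and variation, where its other probe set was left. With the replicate number as a block, 15, 21 and 21 genes were called. Deviations of same-numbered arrays correlated at -0.10 to 0.18, the highest being array 3 of B6TC with array 3 of MDA-MB-231. Arrays of different numbers were not compared in this way, so whether the number marks a pairing was not settled. With the block, TCF7L1 was the call gained, and no other Wnt call changed. Over single genes, comparisons and settings, 1269 of 1338 values kept their side of the threshold without a called reversal. A change of sign between values that were not called was counted as kept. Also counted were differences that a setting could not change, as where the array left out belonged to neither line compared. Of the rest, 56 lost a call, most of them under the rule of 1 log2 unit, 12 gained one and 1, FZD3, reversed. Beyond the size rule and the FZD3 probe set, the cause of these changes was not tested. Robust regression gained WNT5B and DKK1 for B6TC against MDA-MB-231 (0.15 and -0.05). A low value may lie near the background of the array, which limits differences at genes under 6.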
